A study of Mus musculus with 6 samples.

Results

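Complement is a cascade of plasma proteins that tags particles and dying cells for uptake and releases small fragments that call in and activate leukocytes. The classical pathway starts when C1q, built from the A, B and C chains, binds an antibody-coated or altered surface. The alternative pathway amplifies the deposition of C3 with the protease factor B and the stabilising protein properdin, and the fragments C3a and C5a act through the receptors encoded by C3ar1 and C5ar1. The liver makes most circulating complement, but macrophages and dendritic cells make C1q, C3, factor B and properdin themselves and carry the receptors for the fragments.

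This account covers 9 complement genes, picked by name for their roles in the cascade: the C1q chains C1qa, C1qb and C1qc, the central component C3, the alternative pathway genes Cfb (factor B) and Cfp (properdin), the receptors C3ar1 and C5ar1, and Serping1 (C1 inhibitor). All 9 were found among the 23398 genes of the table, and each lies on the minus strand and is annotated as protein coding. The cells were mouse bone marrow derived dendritic cells (BMDC) cultured in serum-containing medium and exposed for 12 hours to vehicle or to nanoparticles of Ca(OH)2, with 3 RNA sequencing libraries in each group. The labels give no strain, age, sex, particle dose or culture cytokine, and do not say whether the libraries of a group came from separate animals or cultures, so p-values measure the spread between these libraries, which may be technical. Levels are in FPKM, fragments per kilobase of a gene's exons, so they can be compared between genes. The scaling between libraries is that of median-of-ratios size factors, which assume that most genes do not change, and not that of total reads.

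Recovered read totals were 17284951 to 18221844 in the vehicle libraries and 17792967 to 21979863 in the nanoparticle libraries. Nanoparticle library 1 stood apart. Its correlation with nanoparticle libraries 2 and 3 across the 10682 tested genes was 0.942 and 0.928, against 0.9895 between those 2 libraries and 0.993 to 0.994 among the vehicle libraries. The main results are therefore given with and without it. Of all tested genes, 33.2% passed an adjusted p of 0.05 (limma, Benjamini-Hochberg), 17.0% higher and 16.2% lower, and without nanoparticle library 1 the share was 64.8% (34.3% higher, 30.5% lower). The split of 1817 higher and 1733 lower genes became 1108 and 3613 with scaling by total reads, 881 and 4306 with equal sums of FPKM, and 1318 and 2720 with equal upper quartiles, for which the median of all genes lay at a log2 change of -0.28, -0.38 and -0.17. The dendritic cell markers Itgax (248 to 456 FPKM) and H2-Ab1 (494 to 1162 FPKM) were abundant in each library, while Flt3 stayed under 1 FPKM in each and Cd209a was at 0 in nanoparticle libraries 1 and 3. All 8 macrophage and monocyte markers looked at were above the filter on low values as well. Summed neutrophil markers came to 34.7 to 39.0 FPKM with vehicle and 50.8 to 125 FPKM with nanoparticles, mostly from S100a8 and S100a9, and summed B, T and natural killer cell markers to at most 0.374 FPKM. In bulk RNA, fewer cells of a type and less RNA per cell cannot be told apart.

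The C1q chains and the receptor C5ar1 were lower with nanoparticles, while C3 and Cfb were higher. Of the 9 genes, 6 passed the threshold (2 higher, 4 lower), where 33.2% of all tested genes passed (17.0% higher, 16.2% lower). Cfp and C3ar1 were tested and did not pass, and Serping1 was below the filter on low values. The filter asked for at least 1 FPKM in at least 3 libraries. Cfb met it only through the nanoparticle libraries, where it was high. The groups did not overlap for any of the 8 genes above the filter, a pattern that 52.1% of all tested genes share (25.9% higher, 26.2% lower). Without nanoparticle library 1, C3ar1 passed in addition, which made 7 genes (2 higher, 5 lower) against the 34.3% higher and 30.5% lower of all genes in that fit.

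**Figure D1:**
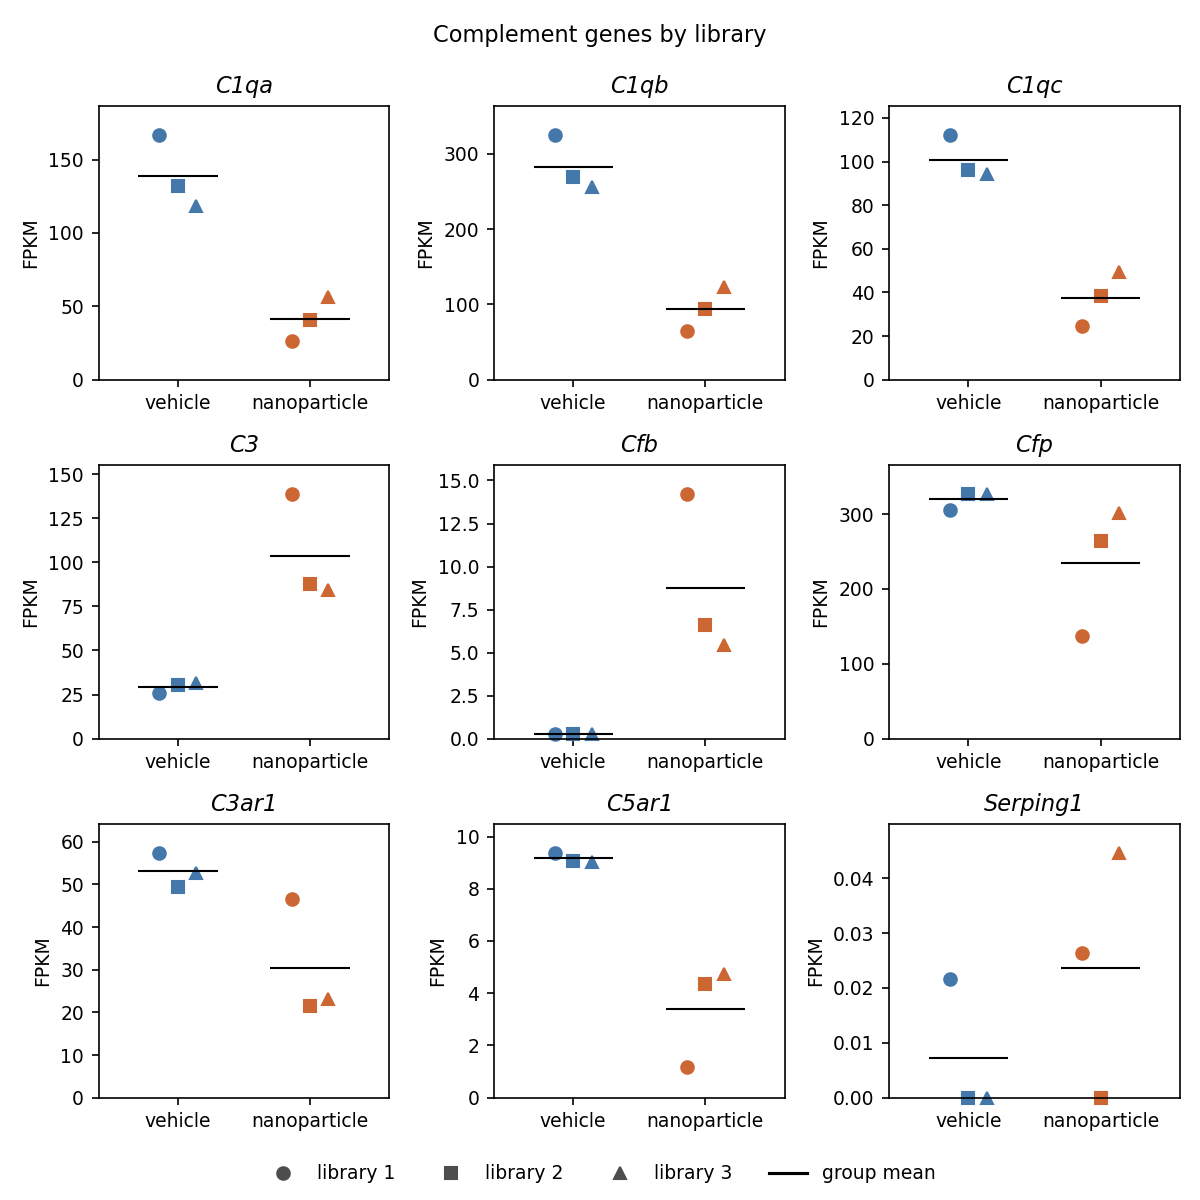
FPKM of each of the 9 complement genes in the 3 vehicle (blue) and 3 nanoparticle (orange) libraries, with marker shape giving the library number and a line the group mean; each vertical axis is linear and starts at 0. Nanoparticle library 1 was the lowest library for the 3 C1q chains, Cfp and C5ar1 and the highest for C3 and Cfb, whereas for C3ar1 it lay nearest the vehicle libraries.

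C1q was described first, as it is the recognition part of the classical pathway. C1qa encodes the A chain. It stood at 167, 132 and 118 FPKM in vehicle libraries 1 to 3 and at 26.1, 40.8 and 56.5 FPKM in nanoparticle libraries 1 to 3. Every nanoparticle library lay below every vehicle library, and the highest nanoparticle value was less than the lowest vehicle value by a wide margin. Group means were 139 ± 24.9 and 41.2 ± 15.2 FPKM (SD, n = 3), so that C1qa fell 3.38-fold. On the log2(FPKM + 1) scale, used for every log2 change here, this was -1.78 with an SE of 0.29 (adjusted p = 0.00480 by limma). Without nanoparticle library 1 the difference was 2.86-fold (limma adjusted p = 4.9e-04).

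C1qb, which encodes the B chain, was the most abundant of the chains. Its levels were 325, 269 and 256 FPKM with vehicle and 64.8, 93.6 and 124 FPKM with nanoparticles. The order of the libraries within each group was that of C1qa. C1qb fell 3.01-fold, with means of 283 ± 37.0 and 94.04 ± 29.4 FPKM (SD, n = 3). Its log2 change of -1.62 had an SE of 0.25 (adjusted p = 0.00390 by limma), and the fold was 2.61 without nanoparticle library 1.

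C1qc, the gene of the C chain, had 112, 96.1 and 94.3 FPKM with vehicle and 24.5, 38.2 and 49.5 FPKM with nanoparticles. It too fell, with means of 101 ± 9.87 and 37.4 ± 12.5 FPKM (SD, n = 3), and its log2 change was -1.46 with an SE of 0.25 (adjusted p = 0.00626 by limma). This was 2.70-fold, or 2.30-fold without nanoparticle library 1. All 3 chains kept their direction and stayed past the threshold in each of the 17 alternative settings run.

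Summed over the chains, C1q transcripts came to 604, 497 and 468 FPKM with vehicle and 115, 173 and 229.7 FPKM with nanoparticles. The libraries therefore differed within the groups as well, and in the same order for each chain. Vehicle library 1 exceeded the lowest vehicle library 1.41-fold for C1qa, 1.27-fold for C1qb and 1.19-fold for C1qc. Nanoparticle library 1 held less than the mean of libraries 2 and 3, by 1.86-fold, 1.68-fold and 1.79-fold. Counting error was at most 4.75%, 2.95% and 3.601% for the 3 genes, since the lowest library still held 444, 1152 and 771 recovered reads.

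The chains kept similar proportions. C1qa made up 25.3% to 27.6% of the summed FPKM with vehicle and 22.6% to 24.6% with nanoparticles, C1qb 53.8% to 54.6% and 53.8% to 56.2%, and C1qc 18.6% to 20.1% and 21.2% to 22.1%. These are ratios within a library and do not depend on how libraries are scaled. The ratio of C1qa to C1qb was 0.513, 0.491 and 0.464 with vehicle and 0.403, 0.436 and 0.457 with nanoparticles, so vehicle library 3 and nanoparticle library 3 almost met. The ratio of C1qc to C1qb was 0.345, 0.358 and 0.369 with vehicle and 0.377, 0.408 and 0.400 with nanoparticles. For both ratios the groups did not overlap, which gives the smallest p that 3 against 3 allows (exact permutation test, two-sided, p = 0.1, adjusted p = 0.133 over 4 ratios, n = 3 per group), so neither passed.

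**Figure D2:**
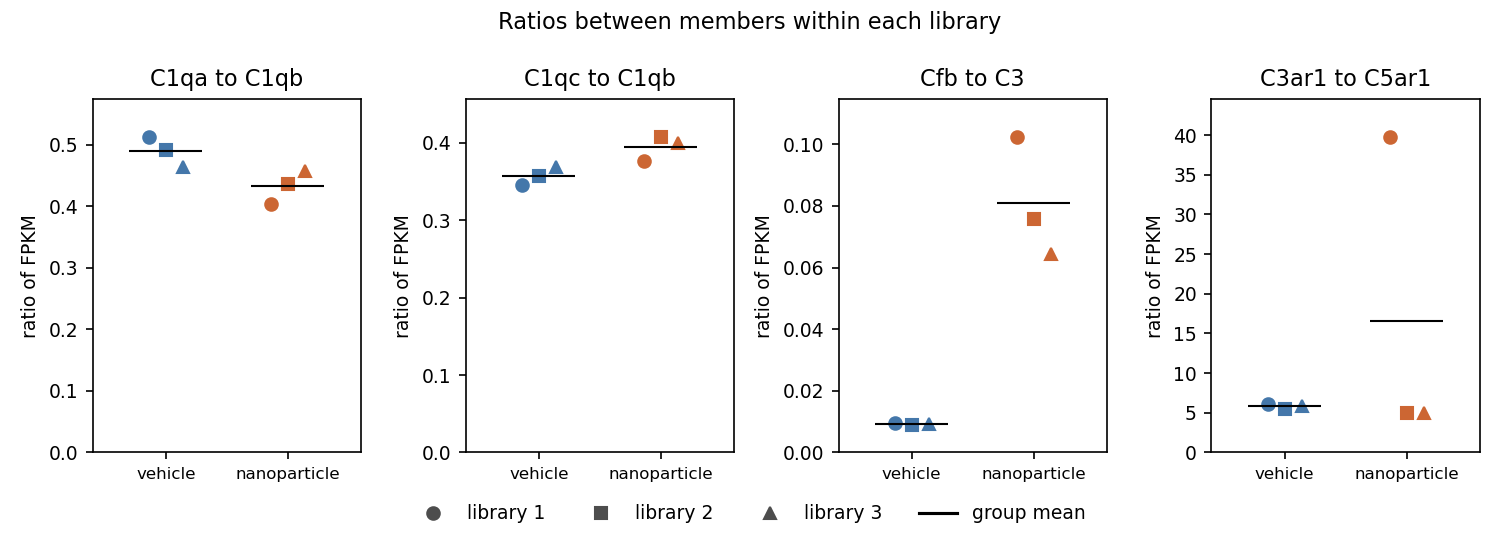
Ratio of the FPKM of 2 genes within each library (linear axes from 0), for C1qa to C1qb, C1qc to C1qb, Cfb to C3 and C3ar1 to C5ar1, with marker shape giving the library number and a line the group mean. The chain ratios stayed between 0.345 and 0.513, the Cfb to C3 ratio was higher in every nanoparticle library, and nanoparticle library 1 alone had a high C3ar1 to C5ar1 ratio, at 39.8.

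The 3 chain genes are neighbours. They span 18675 bases of chromosome 4 (GENCODE M21 on GRCm38), with C1qb at chr4:136880129-136886187, C1qc at chr4:136889804-136893065 and C1qa at chr4:136895917-136898803. None of them shares exons with another annotated gene. Because they moved together, the promoters of C1qb and C1qc are shown, as RefSeq gives them on GRCm38.p6, from 250 bases before the start site to 50 after it, 5′ to 3′ on the minus strand. Capitals mark the NF-kappaB motif (GGG, any 5 bases, CC) and the motif GAGGAAGT of PU.1, a transcription factor of myeloid cells, both searched on both strands.
C1qb, chr4:136886151-136886450: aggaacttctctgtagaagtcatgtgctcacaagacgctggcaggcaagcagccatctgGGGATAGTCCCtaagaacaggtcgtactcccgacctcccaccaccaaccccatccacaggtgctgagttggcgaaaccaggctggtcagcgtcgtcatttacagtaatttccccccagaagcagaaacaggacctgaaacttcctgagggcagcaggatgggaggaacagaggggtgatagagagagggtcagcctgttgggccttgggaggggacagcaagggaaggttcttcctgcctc
C1qc, chr4:136892865-136893164: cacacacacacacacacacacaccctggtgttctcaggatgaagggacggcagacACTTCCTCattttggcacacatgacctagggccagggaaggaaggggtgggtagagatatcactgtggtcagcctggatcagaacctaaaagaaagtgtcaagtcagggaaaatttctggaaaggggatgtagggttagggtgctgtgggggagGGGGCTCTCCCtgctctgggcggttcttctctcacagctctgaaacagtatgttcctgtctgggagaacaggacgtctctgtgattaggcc

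The NF-kappaB motif occurred 2 times in each window, in overlapping matches. They start 191 and 190 bases before the RefSeq start site of C1qb and 41 and 40 bases before that of C1qc. The RefSeq start site of C1qc lies inside the gene as GENCODE M21 places it, so by GENCODE the C1qc matches fall within the gene. The NF-kappaB motif was found in 50.8% of the 32851 promoter windows of that length, so a match is common. The C1qc window also held the PU.1 motif, on the other strand and 195 bases before the start site, which 3.20% of windows have and the C1qb window did not. These matches are descriptions of the sequence, and their part in the levels was not tested.

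Macrophages are a main source of C1q, so their markers were set beside the chains. Of the 8 macrophage and monocyte markers, 4 rose (Cd68, Adgre1, Fcgr1 and Ly6c2), 2 fell (Ccr2 among them) and 2 did not pass (Csf1r and Mertk). The summed level of the 8 markers was 633 to 645 FPKM with vehicle and 847 to 1117 FPKM with nanoparticles. All genes together summed to 321728 to 328384 FPKM and 400186 to 491404 FPKM. With equal sums of FPKM, Ly6c2 still passed as higher and Csf1r passed as lower. Cd68, Adgre1 and Fcgr1 did not pass there (limma adjusted p = 0.451, 0.0686 and 0.0784). The Cd68 call was also lost with total reads and equal upper quartiles (limma adjusted p = 0.171 and 0.0942). Adgre1, which encodes the macrophage surface protein F4/80, went from 62.9, 68.3 and 66.9 FPKM to 276, 141 and 132 FPKM, opposite to the C1q chains. Of the 10 dendritic cell markers, 8 were tested, of which 5 fell and 1 rose, with summed levels of 1476 to 1521 FPKM and 860 to 1657 FPKM. The part of these marker changes in the C1q levels was not tested.

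C3, the component on which all activation routes meet, moved the other way. Its levels were 25.8, 30.4 and 31.6 FPKM in the vehicle libraries and 139, 87.5 and 84.1 FPKM in the nanoparticle libraries. Nanoparticle library 1 was the highest, and the other 2 nanoparticle libraries differed from each other by 1.04-fold. C3 rose 3.54-fold, with means of 29.3 ± 3.03 and 103 ± 30.6 FPKM (SD, n = 3). The log2 change was 1.75 with an SE of 0.22 (adjusted p = 0.00164 by limma). The fold was 2.93 without nanoparticle library 1 (limma adjusted p = 2.5e-05), and C3 was past the threshold in each of the 17 alternatives.

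C3 lies at chr17:57203970-57228136, and the RefSeq promoter window is printed because C3 is the most abundant gene of the set that rose. Capitals mark the C/EBP motif TTNNGNAA and the NF-kappaB motif on either strand, 2 families of factors known from acute-phase genes.
C3, chr17:57228087-57228386: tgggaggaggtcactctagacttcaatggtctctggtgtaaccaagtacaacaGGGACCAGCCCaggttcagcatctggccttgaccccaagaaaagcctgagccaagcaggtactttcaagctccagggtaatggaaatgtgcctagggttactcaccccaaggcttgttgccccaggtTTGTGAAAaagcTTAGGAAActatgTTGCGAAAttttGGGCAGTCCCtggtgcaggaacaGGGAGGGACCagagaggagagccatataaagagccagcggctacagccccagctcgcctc

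The window, on the minus strand, held 3 C/EBP matches, 70, 58 and 45 bases before the start site, and 4 NF-kappaB matches, of which the first 2 overlap. A C/EBP match was present in 40.7% of all windows. It was not particular to C3: the windows of C1qc (not marked above) and C5ar1, genes that fell, each held 1, and those of C1qb, Cfp and C3ar1 held none. The NF-kappaB motif occurred 1 time each in the windows of Cfp and C3ar1 and not in that of C5ar1. The part of these matches in the levels was not tested. The element of interferon-stimulated genes (GAAA, any 2 bases, GAAA), found in 3.44% of windows, was in none of the 6 windows that could be matched by symbol (C1qb, C1qc, C3, Cfp, C3ar1 and C5ar1).

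Cfb encodes factor B, the protease that joins C3b to form the amplifying convertase of the alternative pathway. It was barely expressed with vehicle, at 0.249, 0.268 and 0.288 FPKM, from 14, 15 and 17 recovered reads. With nanoparticles it reached 14.2, 6.63 and 5.42 FPKM, from 656, 310 and 295 reads. All nanoparticle libraries lay far above all vehicle libraries, with library 1 again the highest. The ratio of the means, 0.268 ± 0.0197 and 8.76 ± 4.77 FPKM (SD, n = 3), was 32.6-fold, or 22.5-fold without nanoparticle library 1. The log2(FPKM + 1) change was 2.84 with an SE of 0.31 (adjusted p = 0.00111 by limma), a scale that understates the change of a gene so low in vehicle, and it passed in each of the 17 alternatives. Exons of Cfb (chr17:34856374-34862518) overlap those of Gm20547 on the same strand. How reads from the shared exons were counted is not given in the sources used here, so the level of Cfb is uncertain.

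Cfb was also read relative to C3, its partner in the convertase. The ratio of Cfb to C3 was 0.00963, 0.00881 and 0.00913 with vehicle and 0.102, 0.0758 and 0.0644 with nanoparticles. The lowest nanoparticle ratio was well above the highest vehicle ratio, and the mean log2 difference was 3.11 (exact permutation test, two-sided, p = 0.1, the smallest possible, adjusted p = 0.133 over 4 ratios, n = 3 per group). C3 remained the more abundant transcript per length in each library.

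Cfp encodes properdin, the stabiliser of the alternative convertase, and was the most abundant of the 9 genes in the means of both groups. Its levels were 305, 327 and 327 FPKM with vehicle and 137, 265 and 302 FPKM with nanoparticles. Nanoparticle library 3 nearly reached vehicle library 1, and library 1 was lower than the mean of libraries 2 and 3 by 2.07-fold. The means were 320 ± 12.7 and 235 ± 86.4 FPKM (SD, n = 3), and the log2 change of -0.52 with an SE of 0.30 did not pass (adjusted p = 0.235 by limma). Without nanoparticle library 1 it was -0.18 (adjusted p = 0.0704 by limma), and the vehicle mean was 1.13-fold the nanoparticle mean in place of 1.36-fold. Cfp (chrX:20925454-20931555) passed as lower with equal sums of FPKM, total reads and quantile normalization.

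The receptors of the anaphylatoxins C3a and C5a are G protein-coupled receptors of myeloid cells. C3ar1 (chr6:122847138-122856161) had 57.4, 49.3 and 52.6 FPKM with vehicle and 46.5, 21.5 and 23.2 FPKM with nanoparticles. Nanoparticle library 1 lay just below the vehicle libraries, while libraries 2 and 3 were well below them. The means were 53.1 ± 4.07 and 30.4 ± 13.9 FPKM (SD, n = 3), and the log2 change of -0.87 with an SE of 0.29 did not pass (adjusted p = 0.0632 by limma). Without nanoparticle library 1 it passed, at -1.21 with an SE of 0.08 (adjusted p = 3.5e-05 by limma), which is 2.37-fold. It also passed as lower with 4 other scalings and with the replicate block.

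C5ar1 (chr7:16246743-16259540) was lower than C3ar1 in every library. It stood at 9.37, 9.07 and 9.04 FPKM with vehicle and 1.17, 4.35 and 4.72 FPKM with nanoparticles. Here nanoparticle library 1 was the lowest, by 3.89-fold against the mean of libraries 2 and 3, and rested on 49 reads. C5ar1 fell 2.68-fold, with means of 9.16 ± 0.186 and 3.41 ± 1.95 FPKM (SD, n = 3). The log2 change of -1.33 had an SE of 0.37 (adjusted p = 0.0350 by limma). Without nanoparticle library 1 the fold was 2.02 (log2 change -0.88, adjusted p = 7.0e-05 by limma). The call was lost without vehicle library 1, 2 or 3 (limma adjusted p = 0.106, 0.102 and 0.101), with a pseudocount of 0.1 (0.0522) and with no filter (0.0820).

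Nanoparticle library 1 thus went opposite ways for the receptors. The ratio of C3ar1 to C5ar1 was 6.12, 5.44 and 5.82 with vehicle, 39.8 in nanoparticle library 1, and 4.95 and 4.92 in nanoparticle libraries 2 and 3. The groups overlapped in it (mean log2 difference 0.77, exact permutation test, two-sided, p = 1.0, n = 3 per group), and without nanoparticle library 1 the difference was -0.23, the opposite sign.

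Serping1 encodes C1 inhibitor, the serpin that blocks the proteases of the C1 complex. Recovered reads numbered 1, 0 and 0 with vehicle and 1, 0 and 2 with nanoparticles. All of these are under the floor of 3 reads, which corresponds to 0.0618 to 0.0790 FPKM, so no fold is given and no difference was detectable at this depth. The gene lies at chr2:84765387-84775444.

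**Figure D3:**
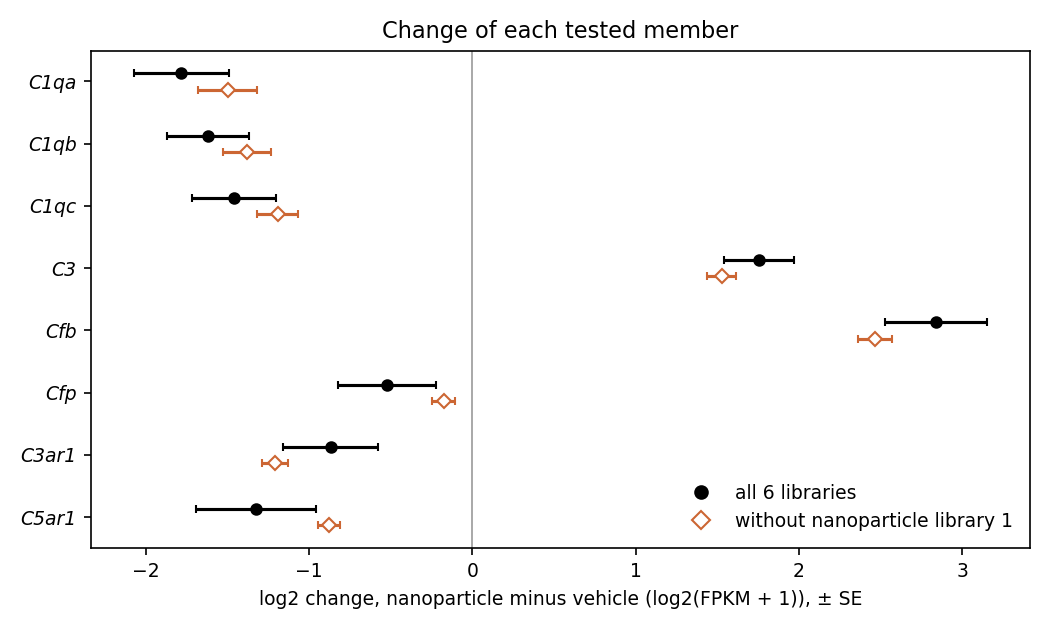
Change in log2(FPKM + 1), nanoparticle minus vehicle, of the 8 complement genes above the filter, with bars for the limma standard error; filled circles are from all 6 libraries and open diamonds from the fit without nanoparticle library 1. The C1q chains, Cfp, C5ar1, C3 and Cfb lay closer to 0 without that library and C3ar1 farther from 0, while no gene changed sign.

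The order of the levels changed between the groups. With vehicle, the means ran from Cfp through C1qb, C1qa, C1qc, C3ar1, C3, C5ar1 and Cfb to Serping1, and of these neighbours Cfp and C1qb alone had overlapping ranges. With nanoparticles the order was Cfp, C3, C1qb, C1qa, C1qc, C3ar1, Cfb, C5ar1 and Serping1. C3 thus stood next to Cfp and above the C1q chains, with ranges that overlapped those of Cfp (137 to 302 FPKM) and C1qb (64.8 to 124 FPKM), and the ranges of C1qa, C1qc and C3ar1 overlapped from neighbour to neighbour. Cfb ranged from 5.42 to 14.2 FPKM and C5ar1 from 1.17 to 4.72 FPKM, in the reverse order of the vehicle group.

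Other genes of the pathway were read from a list of 52 genes. Of these, 38 were measured here and 16 were above the filter. Among the 16, 4 rose and 3 fell, and 9 did not pass, where 17.0% of all tested genes were called higher and 16.2% lower. The median log2 change of the 16 was -0.31, against 0.00 for all tested genes. Without nanoparticle library 1, 5 rose and 6 fell, in a fit that called 64.8% of all tested genes (34.3% higher, 30.5% lower).

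Of the 5 tested genes that start the classical and lectin routes, 3 rose and 1 fell, beside the 17.0% higher and 16.2% lower of all tested genes. C1ra encodes a protease of the C1 complex and C1rl a related protease. C1ra was at 3.65, 4.01 and 3.25 FPKM with vehicle and 13.03, 9.53 and 8.51 FPKM with nanoparticles, and it rose with a log2 change of 1.28 and an SE of 0.17 (adjusted p = 0.00206 by limma). C1rl went from 0.6003, 0.687 and 0.732 FPKM to 2.99, 2.39 and 2.02 FPKM (log2 change 1.04, limma adjusted p = 0.00171), and it met the filter only through the nanoparticle libraries.

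Ptx3 encodes the long pentraxin, a secreted pattern recognition protein that binds C1q. It rose from 88.1, 78.5 and 75.5 FPKM to 240.4, 595 and 608 FPKM (log2 change 2.45, SE 0.37, limma adjusted p = 0.00361). Nanoparticle library 1 was the lowest of its group here, unlike for C3 and Cfb. Colec12, a scavenger receptor collectin that can start complement activation, fell from 25.4, 19.2 and 18.05 FPKM to 11.2, 13.01 and 11.9 FPKM (log2 change -0.74, limma adjusted p = 0.0113). The other tested gene, Fcna, encodes a ficolin and did not pass.

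Among membrane regulators, Susd4, a sushi domain inhibitor of complement, fell from 2.13, 2.39 and 2.36 FPKM to 0, 0.0627 and 0.188 FPKM (log2 change -1.61, SE 0.11, limma adjusted p = 2.0e-04). It met the filter only through the vehicle libraries. Cr1l, which encodes the rodent C3 convertase inhibitor Crry, rose from 5.90, 5.26 and 5.67 FPKM to 8.21, 7.10 and 8.01 FPKM (log2 change 0.41, limma adjusted p = 0.0220). That call was lost with equal sums of FPKM, where the log2 change was -6.4e-04, with total reads or equal upper quartiles, with the replicate block, and without vehicle library 1, 2 or 3 or nanoparticle library 3. The clusterin gene Clu, an inhibitor of the terminal complex and the single fluid-phase regulator tested, did not pass (log2 change 0.41, limma adjusted p = 0.338) and rose without nanoparticle library 1 (log2 change 0.75, limma adjusted p = 0.00128).

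Among receptors, Cd93, a surface lectin once proposed as a C1q receptor, fell from 27.4, 27.7 and 28.2 FPKM to 1.84, 5.39 and 5.18 FPKM. This was a 6.71-fold difference (log2 change -2.58, SE 0.31, limma adjusted p = 0.00162), and 5.25-fold without nanoparticle library 1. The subunits of the C3 fragment receptors CR3 and CR4, Itgam, Itgax and Itgb2, singled out after their values were seen, did not pass with all libraries (log2 changes -0.57, -0.43 and -0.38). When nanoparticle library 1 was left out, 4 receptors passed as lower: Cd93, Itgax and Itgb2 (log2 changes -0.22 and -0.31 for the latter), and Lrp1, a large endocytic receptor, also named after its values were seen. Lrp1 stood at 57.9, 51.8 and 51.4 FPKM with vehicle and 49.9, 24.3 and 20.8 FPKM with nanoparticles, with an adjusted p of 0.0856 by limma over all libraries and a log2 change of -1.22 (adjusted p = 5.3e-05 by limma) without library 1. Itgam shares exons with Gm49368. No terminal pathway gene was above the filter, and the highest of them, C8g, stood at 0.710 to 0.975 FPKM with vehicle and 0.765 to 1.03 FPKM with nanoparticles.

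**Figure D4:**
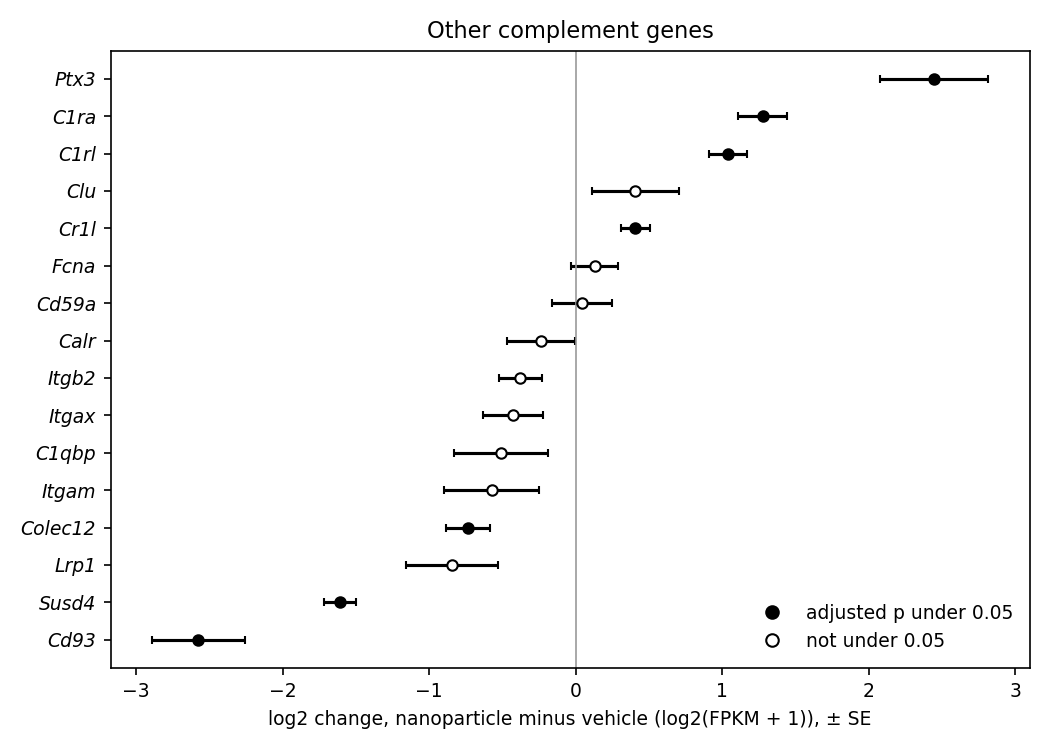
Change in log2(FPKM + 1), nanoparticle minus vehicle, of the 16 other complement genes above the filter, with bars for the limma standard error; filled symbols passed an adjusted p of 0.05 over all tested genes. Ptx3, C1ra, C1rl and Cr1l rose, Colec12, Susd4 and Cd93 fell, and the other 9 did not pass.

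A pair of low genes, picked after their values were seen, bear on the same steps. C1s1, the protease partner of C1ra, had 2, 3 and 4 reads with vehicle and 14, 38 and 31 with nanoparticles, and an antisense gene, Gm16567, overlaps it. C5ar2, which encodes another C5a receptor, went from 49, 59 and 44 reads to 5, 5 and 0. In the fit with no filter these had limma adjusted p = 0.0372 and 0.00388. Stromal cells make C1s1 and C3 as well, and the summed level of the 5 measured stromal markers of 6 was 0 to 0.0639 FPKM with vehicle and 0.923 to 3.82 FPKM with nanoparticles (3.82 FPKM in nanoparticle library 1), while Col1a1, Col1a2 and Lum were under 1 FPKM in each library. The sum came mostly from Dcn, with 0, 1 and 2 reads with vehicle and 228, 30 and 10 with nanoparticles, and from Pdgfrb, with 0, 6 and 3 reads and 115, 93 and 88. In the fit with no filter Pdgfrb passed and Dcn did not (adjusted p = 0.00282 and 0.355 by limma). The part of this in the C3 and C1s1 levels was not tested.

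By Pearson correlation of log2(FPKM + 1) over the 6 libraries, given as a description, C1qa and C1qb correlated at r = 0.9993 and C1qc with them at r = 0.9974 and 0.9977. With the 9 complement genes themselves left out, the tested genes most like each chain were Sec22c and Gda for C1qa (r = 0.9984 and 0.9981) and for C1qb (r = 0.9982 and 0.9996), and Mfsd12 and Sulf2 for C1qc (r = 0.9993 and 0.9978). Gda, which encodes guanine deaminase, was at 11.5, 10.3 and 10.09 FPKM with vehicle and 4.13, 5.14 and 6.25 FPKM with nanoparticles, in the library order of the C1q chains. Outside the 9 genes, C3 was matched most closely by Serpinb2 and Sp140 (r = 0.9998 and 0.9996), and Cfb by Cyp26b1 and the adhesion gene Vcam1 (r = 0.9997 and 0.9996). Serpinb2, the gene of plasminogen activator inhibitor type 2, went from 4.9999, 7.82 and 8.89 FPKM to 454, 149 and 134 FPKM, with library 1 highest as for C3.

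For the genes that did not pass or passed less firmly, the closest outside the set were Acaa2 and Sphk1 for Cfp (r = 0.9985 for each), Peg13 and Clcn3 for C3ar1 (r = 0.9992 and 0.9983), and Ccng1 and Spint1 for C5ar1 (r = 0.9997 and 0.9995). Over 6 libraries of which 1 stands apart, many genes share such a pattern, so these values describe the libraries and say nothing of shared control. Peg13, an imprinted noncoding RNA gene, stood at 3.36, 1.89 and 1.98 FPKM with nanoparticles and 3.51 to 3.83 FPKM with vehicle, the pattern of C3ar1.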

How the data were processed

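Per the labels' protocols, total RNA (1 µg) of the 6 samples went into NEBNext Ultra II libraries. The submitters' processing notes name STAR 2.5, HTSeq, edgeR 3.16.5 and DESeq2 and the builds mm10 and hg19, without roles. The FPKM values deposited by the authors are already divided by gene length and library scale, as read from the values, since the file headers name no unit. The 2 tables, 1 of which is named for read counts, hold the same 140388 values. With GENCODE M21 exon lengths, 95.8% to 96.1% of values above 0 became whole reads (within 0.01), with library scales within 0.0109% of median-of-ratios size factors. The values thus assume that most genes do not change.

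The 10682 genes that reached 1 FPKM in 3 or more libraries were fitted with limma 3.58.1 in R 4.3.3 on log2(FPKM + 1), group as the single term, eBayes with trend, two-sided, Benjamini-Hochberg over all tested genes, threshold 0.05. Fold differences are ratios of mean FPKM. The fit was also run on simulated reads in which no library stood apart. That run cannot show how the fit behaves with nanoparticle library 1, and no conclusion is drawn from it. Alternatives were pseudocounts of 0.1 and 0.5, other filters, scalings and eBayes settings, a replicate block and leaving out each library. Within-library ratios were compared with exact permutation tests (scipy 1.17.1). The ratio of Serping1 to C1q was planned and not computed, as Serping1 was under the floor of 3 reads, which covers counting error only. All 9 genes are named, with every other complement gene past the threshold, the highest gene of a list group without one, and the 2 tested genes outside the 9 most correlated with each of the 8 tested. The genes and lists were chosen with earlier results of these data known, and the motifs with the promoters in view. Groups and replicate numbers come from the titles.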

Additional observations from a re-analysis of the deposited data

How the results depend on the processing

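With 3 libraries per group and nanoparticle library 1 apart, the spread limits which small changes can be called, and low genes are limited by reads. Across 17 alternatives no tested complement gene of the 9 changed sign, and the count past the threshold lay between 5 and 8, against 6. The count of 8 came with equal sums of FPKM, total reads and quantile normalization. These called 5187, 4721 and 3844 of all 10682 genes, against 3550. Without vehicle library 1, 2 or 3 the count was 5, where 2226, 2188 and 2141 genes were called in all. It was also 5 with a pseudocount of 0.1 (3470 genes in all) and with no filter (3381 of 23398). Cfp passed with equal sums of FPKM (log2 change -0.99), total reads (-0.87) and quantile normalization (-1.16). C3ar1 passed under these (-1.33, -1.20 and -1.18), with equal upper quartiles (-1.07) and with the replicate block (-0.87, limma adjusted p = 0.0467). Of these scalings, all but quantile normalization shift the median of all genes down by over 0.1. C5ar1 did not pass with a pseudocount of 0.1 (-1.62) or no filter (-1.33). The count of other complement genes was 11 with no filter, and 12 with equal sums of FPKM and with quantile normalization, against 7. With no filter all 38 measured genes of that list were tested in place of 16, among 23398 genes of which 3381 passed. Equal sums and quantile normalization called 5187 and 3844 of all 10682 genes, against 3550. Leaving out 1 library gave 2141 (without vehicle library 3) to 6923 genes (without nanoparticle library 1) in all, 6 to 11 other complement genes, log2 changes of -1.21 to -0.67 for C3ar1 and -1.58 to -0.88 for C5ar1, and log2 differences of -0.23 to 1.28 for the C3ar1 to C5ar1 ratio, which reversed without nanoparticle library 1. Cr1l reversed with equal sums of FPKM (-6.4e-04). The cause was not tested.

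Whether the replicate numbers in the titles pair the libraries could not be told from the values. The deviations of same-numbered libraries from their group means correlated at 0.07, 0.11 and -0.06. Nanoparticle libraries 1 and 2 each correlated best with the vehicle library of their own number, and nanoparticle library 3 with vehicle library 2 (0.11). Deviations from means of 3 libraries, with nanoparticle library 1 apart, cannot decide the question. With the replicate block 2785 genes passed in place of 3550, 7 of the 9 genes in place of 6, and 6 other complement genes in place of 7, Cr1l being lost.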
